A study of Mus musculus with 6 samples.

Results

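The Pim3 locus was taken as the DNA of mouse chromosome 15 from 88640000 to 88770000 (build mm9), a window of 130.0 kb around Pim3 and its neighbours. The enzyme DNase I cuts accessible DNA most readily, and a hotspot is a local excess of cuts that marks accessible DNA such as a promoter or an enhancer. Hotspots of all 6 libraries that shared at least 1 bp were merged, and 22 of the 75169 merged regions lay in the window. They are numbered 1 to 22 in chromosome order. The window was selected on the difference in density between fasted and fed livers in these same libraries, because it holds a long run of regions that were higher after fasting. The contrast below is therefore a description of the chosen regions and carries no test of them.

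The livers came from C57BL/6 mice, an inbred strain, in 2 groups of 3 libraries: mice fasted for 24 h and mice with free access to food. All animals were killed at lights on, and no transgene or deletion is named in the labels. The sources used here give no age or sex and do not say whether each replicate number is 1 animal, so the spread between libraries may be partly technical. Whole liver holds several cell types, so more cells with an open site and a more open site in each cell cannot be told apart. The hotspot lists name no genes, and the labelled tissue was not checked against liver markers here.

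Pim3 encodes a serine/threonine kinase of the PIM family, which is active without a separate activating phosphorylation and is controlled mainly through the amount of its mRNA and protein. Cytokine signalling through JAK and STAT proteins is a known inducer of PIM genes, and PIM kinases promote cell survival and protein synthesis. In mice, Pim3 also limits insulin secretion by beta cells. In the RefSeq gene table of another build (GRCm38.p6), the protein-coding genes before Pim3 are, from far to near, Brd1, Zbed4, Alg12, Creld2 and the predicted gene Gm33049, and those after it are Ttll8, Mlc1 and Mov10l1. Alg12 adds a mannose to the sugar chain that is built in the endoplasmic reticulum (ER) for attachment to proteins. Creld2 encodes an ER protein whose gene is induced when unfolded proteins accumulate there. Brd1 is a scaffold of histone acetyltransferase complexes, and Ttll8 adds glycine to tubulin. Since no annotation of mm9 was used, no region below is assigned to a gene, an exon or an intron.

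The promoters of Pim3 and Creld2 are shown because the window is named for Pim3 and because Creld2, the nearest of the characterised genes before it, has a known stress-inducible promoter. Both are the 250 bases before the RefSeq start on the plus strand of chromosome 15 in GRCm38.p6, at chr15:88861944-88862193 for Pim3 and chr15:88819396-88819645 for Creld2. These positions cannot be set beside the mm9 positions used elsewhere. Capitals mark matches, on either strand, to any of the motifs listed in the next paragraph.
Pim3: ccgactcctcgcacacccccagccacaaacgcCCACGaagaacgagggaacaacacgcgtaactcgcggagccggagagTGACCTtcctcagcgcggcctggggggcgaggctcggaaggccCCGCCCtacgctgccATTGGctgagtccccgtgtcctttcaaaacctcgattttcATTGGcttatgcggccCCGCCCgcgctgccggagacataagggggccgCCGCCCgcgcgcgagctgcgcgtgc
Creld2: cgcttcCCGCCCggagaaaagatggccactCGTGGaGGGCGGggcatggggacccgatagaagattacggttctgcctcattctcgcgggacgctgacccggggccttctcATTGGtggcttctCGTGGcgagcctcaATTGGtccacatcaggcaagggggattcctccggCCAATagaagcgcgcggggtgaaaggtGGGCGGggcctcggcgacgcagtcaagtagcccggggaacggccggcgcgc

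Both promoters are rich in G and C, with 68.0% in Pim3 and 66.0% in Creld2, against a median of 52.4% over 32851 RefSeq promoters of the same length. Pim3 has 31 CpG pairs and Creld2 26, against a median of 6. The Pim3 window held 3 copies of the GC box GGGCGG, a motif found in 32.7% of all promoters, and 2 copies of the CCAAT box, found in 33.8%. It also held 1 nuclear receptor core (AGGTCA, 14.0% of promoters) and 1 copy of CCACG (28.3%). No match was found there to the full CREB site TGACGTCA (1.55% of promoters), its short form TGACG (17.8%), or the FOXO and FOXA core TGTTTAC (3.17%). The same was true of the C/EBP core TTGCNNAA (9.56%), the glucocorticoid receptor core AGAACA (16.1%), the STAT site TTCNNNGAA (7.02%) and the E-box CACGTG (6.02%). The Creld2 window held 3 GC boxes, 3 CCAAT boxes and 2 copies of CCACG, and no match to the other 8 motifs. In 1 place its CCAAT and CCACG letters stood 9 bases apart in the arrangement of the ER stress element, which occurs in 37 of 32851 promoters (0.113%). The windows of Creld2 and Alg12, which is read from the opposite strand, overlap there, so the same letters also lie before Alg12. That arrangement was searched for after its parts had been seen. It overlaps the single motifs it is made of, and the short CREB form lies within the full one. A match is a run of letters and not a bound site, and the motifs were chosen in this re-analysis.

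The locus was densely packed with accessible regions and stood alone. Its 22 regions ran over 104 kb with a median gap of 1.87 kb, against 8.85 kb between neighbouring regions of the genome. A stretch as long as the window (130.0 kb) that began at any one of the 75169 regions held a median of 7 regions, and 98.9% held fewer than 22. The nearest region before the locus ended 66.3 kb away and the nearest after it began 152 kb away, gaps longer than 88.6% and 96.0% of all gaps. The members were 453 to 2239 bp wide. The 18 of them called in every library had a median width of 1154 bp, against 1054 bp over the 37044 regions of the genome that were called in every library (shared regions).

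The members were also tall. The density given here is the highest maximum tag density of a region's hotspots in a library, as deposited, on a scale that the sources used here do not state. Over the 18 shared members the median of the group means was 91.0 in fasted and 64.0 in fed livers, against 22.8 in fasted and 24.0 in fed livers over all shared regions. The middle of the 18 stood at the 90.6th percentile of all shared regions by mean density, the lowest at the 56.4th and the highest, region 11, at the 99.3rd. The lists held 22, 23 and 22 hotspots of the locus in fasted and 20, 20 and 20 in fed livers. The whole lists held 49682, 63476 and 50620 hotspots in fasted and 51609, 50990 and 63105 in fed livers, which overlapped. Because the window was chosen for being higher in fasted livers, nothing is read from the locus counts. The hotspots of the locus covered 21.4, 24.3 and 20.9 kb in fasted and 18.2, 18.3 and 21.5 kb in fed livers. These lengths overlapped between the groups, and the longest of each group came from its deepest library, fasted replicate 2 and fed replicate 3. Relative depth, read from the step of the densities, was 1.32, 1.90 and 1.24 in fasted and 1.02, 1.00 and 1.64 in fed replicates 1 to 3. This reading takes 1 step as 1 tag, in which case the lowest hotspot of the locus was 46 to 77 tags high in the 6 libraries.

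**Figure D1:**
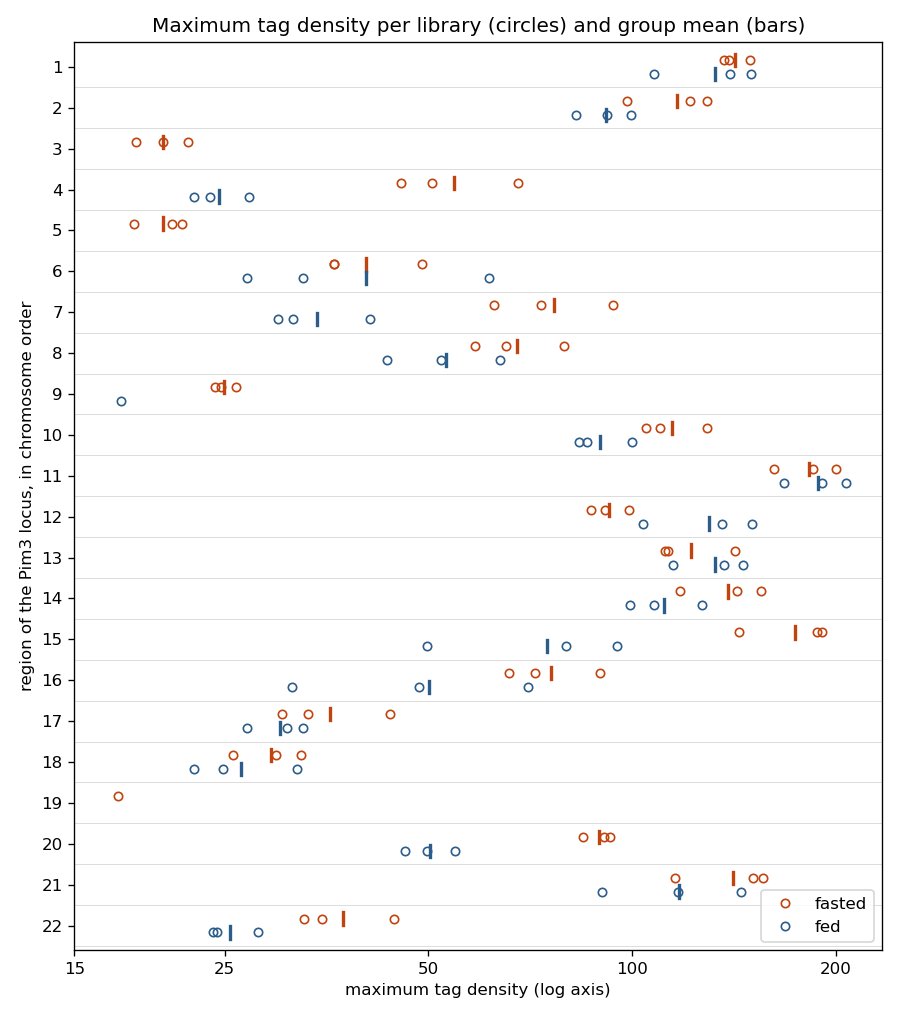
Maximum tag density (log axis) of each region of the Pim3 locus in chromosome order, with 1 circle per library and a bar at the group mean where all 3 libraries had a call; fasted livers are drawn above fed livers. Regions 4, 7, 15 and 20 show fasted circles well to the right of the fed ones, regions 3, 5 and 19 have fasted circles only, and region 12 lies the other way.

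Of the 18 shared members 9 were higher in fasted livers and 1 was lower, and 8 did not pass (limma on log2(density + 1), library medians over the shared regions set equal, Benjamini-Hochberg adjusted p under 0.05 over all 37044). Over all shared regions 7.89% passed as higher and 7.84% as lower. Because this contrast chose the window, nothing is read from that difference. The log2 fold change, fasted minus fed, was above 0 in 16 of the 18, with a median of 0.40 against 0.03 over all shared regions. The share of all shared regions above 0 is not given, and nothing is read from this count either. Among the 9 that rose the log2 fold change ran from 0.38 to 1.32 with a median of 0.72. The median of all risen regions of the genome was 0.78. On the centred scale every fasted library lay above every fed one in 9 of the 18 members (16.8% of all shared regions) and below in 1 (14.6%). The first 9 are not the same set as those that rose. Region 16 rose although its groups overlapped. Region 1 is among the first 9 without having passed, and its densities as deposited overlapped. Even on the centred scale its lowest fasted and highest fed values were both 2.54 when rounded.

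**Figure D2:**
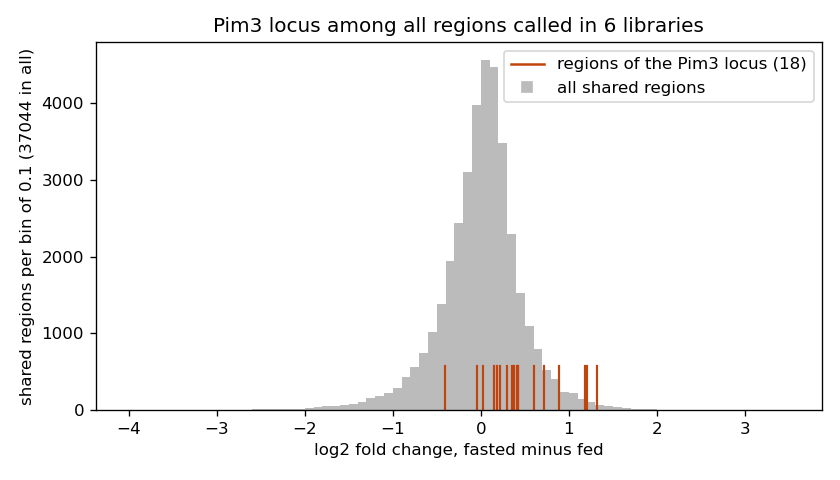
Histogram of the log2 fold change, fasted minus fed, of all 37044 shared regions in bins of 0.1 (vertical axis, number of regions), with the 18 shared members of the Pim3 locus as ticks at the base. The ticks lie between -0.41 and 1.32, mostly to the right of 0, and 236 regions of the genome lie beyond the highest of them.

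Region 15 (chr15:88705831-88707352) had the largest change. Its density was 188, 144 and 191 in fasted livers, against 79.8, 49.8 and 95.0 in fed livers. Every fasted library stood above every fed one by a wide margin, and the log2 fold change was 1.32 (SE 0.17). Region 7 (chr15:88680563-88681602) measured 93.9, 62.6 and 73.3 in fasted livers, against 31.6, 30.0 and 41.0 in fed livers. The groups were again well apart, with a log2 fold change of 1.21 (SE 0.18). Region 4 (chr15:88661740-88662470) had 67.8, 45.6 and 50.6 in fasted livers, against 27.2, 22.5 and 23.8 in fed livers. Its fasted libraries were spread more widely than its fed ones, did not overlap them, and gave a log2 fold change of 1.18 (SE 0.18). In region 20 (chr15:88732490-88733583) the values were 91.1, 92.8 and 84.8 in fasted livers, against 54.8, 49.8 and 46.2 in fed livers. Here both groups were tight, with means of 89.5 ± 4.21 in fasted and 50.3 ± 4.30 in fed livers (SD, n = 3 each) and a log2 fold change of 0.89 (SE 0.15). These 4 regions lie apart from each other along the locus, with other members between each pair, and they were called under all 15 other settings of the fit.

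The other 5 risen regions changed less. Region 16 (chr15:88721277-88722491) had 65.8, 89.8 and 72.0 in fasted livers, against 48.5, 31.5 and 70.3 in fed livers. The highest fed library reached into the fasted range, and the log2 fold change was 0.72 (SE 0.22). Region 22 (chr15:88751638-88753025) had 44.5, 32.8 and 34.8 in fasted livers, against 28.0, 24.4 and 24.0 in fed livers, a log2 fold change of 0.60 (SE 0.19) with no overlap. Region 10 (chr15:88688281-88689225) had 129, 105 and 110.2 in fasted livers, against 85.7, 83.6 and 100.2 in fed livers, and a log2 fold change of 0.42 (SE 0.14). Its groups did not overlap, though the highest fed library came close to the lowest fasted one.

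Region 2 (chr15:88657944-88659399) had 122, 98.5 and 129 in fasted livers, against 99.7, 82.8 and 92.0 in fed livers. Region 14 (chr15:88700964-88701883) had 143, 118 and 155 in fasted livers, against 127, 108 and 99.3 in fed livers. In both, the densities as deposited overlapped and the centred ones did not, and the log2 fold changes were 0.41 (SE 0.13) and 0.38 (SE 0.13). The number of risen members varied with the setting. It was 5 with no centring, 5 with quantile normalization and 4 when only the taller hotspots of each list were kept. Over all regions tested, 5.25%, 7.06% and 5.74% rose in those settings, against 7.89% in the main fit. The number was also 5 without fasted replicate 1 (5.18% of all regions tested) and 4 without fed replicate 2 (5.95%). Leaving out other single libraries left 6 to 9 (5.86% to 8.62% of all regions tested).

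Calls of these 5 regions changed with single libraries. Among the fits that left out 1 library, region 2 passed only in the one without fasted replicate 2. The call of region 10 was lost without fasted replicate 1, fed replicate 1 or fed replicate 2, and that of region 14 without fasted replicate 1, fasted replicate 3, fed replicate 2 or fed replicate 3. For region 22 it was lost without fasted replicate 1 or without any 1 of the fed libraries. Region 16 lost its call without fasted replicate 2 (log2 fold change 0.54), fed replicate 1 (0.71) or fed replicate 2 (0.45). All these values stayed above 0.

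In the middle of the locus, regions 11 to 13 lie side by side over 7.18 kb and none of them rose. Region 11 (chr15:88691913-88693410), the tallest member, had 162, 200.3 and 185 in fasted livers, against 207, 191 and 168 in fed livers. The groups overlapped throughout, and the log2 fold change was 0.02 (SE 0.12). Only 58 bp further on, region 12 (chr15:88693469-88695707) had 91.4, 87.0 and 99.0 in fasted livers, against 150.4, 136 and 104 in fed livers. All fasted libraries were lower, by little in the case of fed replicate 3, and the log2 fold change was -0.41 (SE 0.14). Region 13 (chr15:88697125-88699089) had 113, 112 and 142 in fasted livers, against 146, 115 and 137 in fed livers, with overlapping groups and a log2 fold change of -0.04 (SE 0.13). The fall of region 12 passed in 6 of the 15 other settings. It was lost without fasted replicate 1, fasted replicate 3, fed replicate 1 or fed replicate 2, and when hotspots within 150 bp were merged it became part of region 11 (0.02).

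At several places a risen region had a close neighbour that did not pass. Region 8, which begins 220 bp after region 7, had 58.7, 79.3 and 65.1 in fasted livers, against 52.2, 43.5 and 63.9 in fed livers, and its log2 fold change of 0.42 (SE 0.18) did not pass. Region 17, 61 bp after region 16 (0.72, SE 0.22), had a log2 fold change of 0.30 (SE 0.18). Region 21, 531 bp before region 22 (0.60, SE 0.19), had 0.35 (SE 0.14). Neither passed, and the differences between neighbours were not tested. The remaining members that did not pass were regions 1, 6 and 18, with log2 fold changes of 0.18, 0.15 and 0.22.

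**Figure D3:**
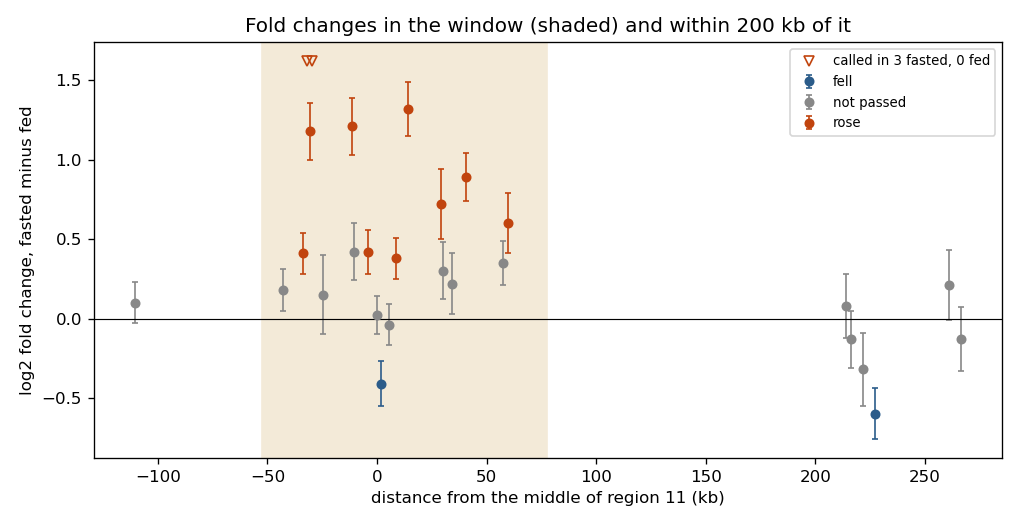
Log2 fold change, fasted minus fed, of each shared region (points, bars are 1 SE) against its distance in kb from the middle of region 11, for the window (shaded) and 200 kb on either side; open triangles mark the regions called in all 3 fasted and no fed libraries and carry no fold change. Risen regions lie on both sides of the cluster around 0, where region 12 fell by 0.41. No risen region is drawn outside the window, which was chosen for its risen run.

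Of the 22 members, 4 lacked a call in some library, all of them narrow and low. The other 18 were called in every library, as were 37044 of the 75169 regions of the genome. Region 3 (chr15:88660189-88660869) had 22.1, 20.3 and 18.5 in fasted livers and no call in fed livers. Region 5 (chr15:88662931-88663383) had 21.6, 18.4 and 20.9 in fasted livers and no call in fed livers either. They stand on either side of region 4, at 870 and 460 bp from it. This pattern of calls, in all fasted and no fed libraries, was seen in 2 of the 22 members and in 1.17% of the 75169 regions. Region 9 (chr15:88684456-88685038) had 24.7, 26.0 and 24.2 in fasted livers, against 17.6 in fed replicate 3 and no call in the other fed libraries. Region 19 was called in fasted replicate 2 alone, at 17.4. No member was called in fed livers only. No share over all regions is given for that pattern, so nothing is read from its absence.

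The density of a region without a call is unknown. The lowest single hotspot called in the locus was 21.6, 15.2 and 18.5 in fasted and 17.3, 17.2 and 17.2 in fed replicates 1 to 3. Such a hotspot can lie within a taller region. Within 200 kb outside the window the lowest region stood at 9.36, 8.09 and 7.87 in fasted and 8.83, 11.2 and 6.87 in fed livers. These are the highest hotspot per region, so single hotspots there may be lower. Over the whole lists the 5th percentile was 4.54, 2.96 and 4.54 in fasted and 5.15, 4.87 and 3.43 in fed livers. Region 5 was itself at the lowest value of the locus in fasted replicate 1 (21.6), and region 3 in fasted replicate 3 (18.5). Their closeness to the lowest hotspots of the locus is therefore partly built in. Both stood above the lowest regions within 200 kb in each fasted library. No fold is given for them. By the highest hotspot per region, the lowest member in fed replicate 1 was region 4, at 27.2. In fed replicate 2 the lowest were regions 4 and 18, at 22.5, and in fed replicate 3 region 9, at 17.6.

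Of the members next to the edges of the window, the last had risen and the first had not passed. Region 1 (chr15:88649326-88650338), the first inside, averaged 142 ± 6.88 in fasted and 133 ± 21.6 in fed livers (SD, n = 3 each), and 1 fed library stood well below the other 5. The nearest region before the window (chr15:88581319-88583020) had 98.2, 114 and 119 in fasted livers, against 109, 108 and 106 in fed livers, a log2 fold change of 0.10 (SE 0.13). At the other end, past region 22, the nearest region after the window (chr15:88905377-88907978) had 30.1, 35.9 and 27.2 in fasted livers, against 29.4, 27.7 and 35.2 in fed livers, a log2 fold change of 0.08 (SE 0.20). Of 11 regions within 200 kb on either side 7 were shared, of which 0 rose and 1 fell (limma, as above). At an unadjusted p under 0.05 in the same fit 0 were higher and 1 was lower. Their median log2 fold change was -0.13. Over all shared regions 7.89% rose and 7.84% fell. Because the window was chosen for its risen run, nothing is read from these counts.

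With the group means taken out, the members did not all vary together between libraries, but fed replicate 2 was low in most of them. Its mean deviation was -0.16, against 0.05 in fed replicate 1 and 0.11 in fed replicate 3. Over the 153 pairs of shared members the correlation of the deviations across the 6 libraries had a median of 0.11, and 64 pairs were below 0. Each of these rests on 6 libraries with the group means removed, and all share the same centring, so they are given as a description. The 10th and 90th percentiles of the 153 were -0.61 and 0.66, and 9 pairs were over 0.9. The sets named next were picked from those 9 pairs after the values were seen. Regions 6, 8 and 16 correlated at 0.93 to 0.96 with each other, and each was highest in fasted replicate 2 among fasted and in fed replicate 3 among fed livers, the deepest library of each group. Region 6 shows this most clearly, with 36.3, 48.9 and 36.3 in fasted livers, against 32.7, 27.0 and 61.6 in fed livers. The part of depth in the values of these 3 regions was not tested. Regions 1 and 12 correlated at 0.99, both low in fed replicate 3, and regions 4 and 22 at 0.97, both high in fasted replicate 1.

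**Figure D4:**
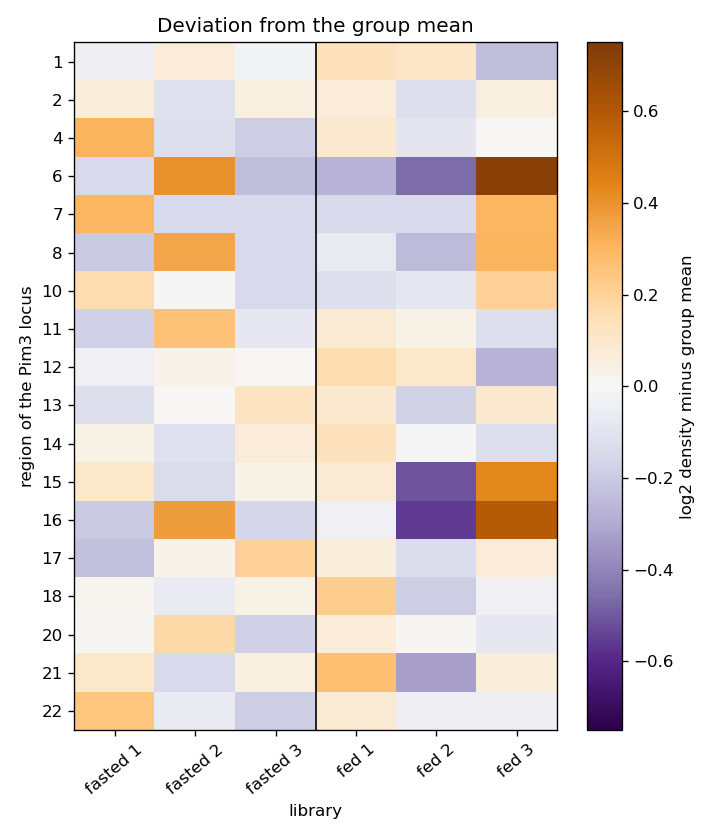
Deviation of each shared member from its group mean (log2 density, colour scale) in the 6 libraries, fasted to the left of the line and fed to the right. Regions 6, 8 and 16 are orange in fasted replicate 2 and fed replicate 3, and fed replicate 2 is purple in most rows, at a mean of -0.16 over the members.

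The mean profile of the 18 shared members, in centred log2 density, was 1.84, 1.87 and 1.77 in fasted and 1.41, 1.21 and 1.47 in fed livers. The 5 regions elsewhere in the genome with the most similar profile over the 6 libraries were chr5:65726455-65727396 (Pearson r = 0.998), chr6:85812440-85813631 (0.996), chr13:41940292-41940952 (0.996), chr8:96688712-96689906 (0.996) and chr3:41236204-41237603 (0.995). Their log2 fold changes were 0.60, 0.32, 0.64, 0.57 and 0.55, and their densities were between 10.5 and 44.5 in the 6 libraries. Likeness over so few libraries is common: 1310 shared regions outside the window had an r over 0.9.

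Among stretches with at least 10 risen regions no more than 20 kb apart, the one at Pim3 had the smallest median rise. There were 4 such stretches, and the Pim3 stretch held 11 risen regions over 95.1 kb, with the 2 called in all 3 fasted and no fed libraries counted in. Its risen shared regions had a median log2 fold change of 0.72, against 1.02, 0.92 and 0.96 in those on chromosomes 12, 13 and 19. The median density over its shared regions was 89.5 in fasted and 53.2 in fed livers. In the others it was 55.1 in fasted and 30.8 in fed livers (chromosome 12), 108 in fasted and 54.2 in fed livers (chromosome 13), and 68.4 in fasted and 27.1 in fed livers (chromosome 19). Only the Pim3 stretch held a region that fell, region 12, whose fall passed in 6 of the 15 other settings. That stretch also had the most shared regions tested, 17, against 12, 5 and 11 on chromosomes 12, 13 and 19. All 4 stretches were found by their fold changes in these libraries, and the differences between them were not tested.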

How the data were processed

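DNase I hypersensitive sites were sequenced in 3 libraries from livers of fasted mice and 3 from livers of fed mice. Per the labels' protocols, nuclei were digested with DNase I at 40 U/ml. The submitters' processing notes name CASAVA 1.8 and build mm9; the sources used here do not name the aligner or the hotspot caller. The authors deposited 1 hotspot list per library. Per the file headers, the values are the maximum and average tag density of a hotspot, which is a coverage signal. The lists deposited by the authors also hold a z-score (their own score per hotspot) and a p-value, and neither was used.

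Hotspots of chromosomes 1 to 19 and X that overlapped by 1 bp were merged, and the highest maximum density per region and library was taken. Regions called in all 6 libraries were fitted on log2(density + 1), centred per library on the median, by limma (version 3.58.1 under R 4.3.3, with eBayes and a trend in the variance), with Benjamini-Hochberg adjustment at 0.05. No count model was used, since heights are not counts per region. All values of the maximum were whole multiples of a step (100% within 0.05 step), and tags are counted on that basis. Python 3.11.15 was used for tables (pandas 2.3.3, numpy 2.4.6) and for plots (matplotlib 3.10.9).

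The window, its regions, the lists and the tests were chosen with earlier results of these data known. All 6 values are given for members that passed, members called in 1 group only and members that fell; others that are named were picked after their values were seen. Lists of PIM pathway and ER genes were not used, since they need an annotation of mm9. Promoter sequences and gene order are from RefSeq, GRCm38.p6, where Pim3 and Creld2 were both matched by symbol.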

Additional observations from a re-analysis of the deposited data

How the results depend on the processing

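No value of the 10 named shared regions turned its sign except region 12, at 0.02 when hotspots within 150 bp were merged, which joins it to region 11; of 150 values 98 kept their call, 51 lost it and 1 turned. The 9 risen members became 5 with no centring, 5 with quantile normalization and 4 with a stricter threshold. That threshold kept hotspots at or above the library median, and fewer regions were tested. Other settings that kept all libraries gave 6 to 9. Over all regions tested, the share that rose also moved with the setting. It was lowest with missing values at the lowest density (3.49%) and highest without fasted replicate 2 (8.62%), against 7.89% in the main fit. Without each replicate in turn 4 to 9 rose and 0 to 1 fell, and the median log2 fold change of the members was 0.33 to 0.48, against 0.40. The 1 fallen member became 0 with pseudocount 0.1, average density, missing values set to each list's lowest density, merging within 150 bp and the replicate block (limma in each; 0 to 1 members were lower at an unadjusted p under 0.05). The replicate block gave 6 risen members; libraries with the same number gave no sign of pairing (deviations correlated at -0.067, -0.030 and -0.167 over all shared regions). Members called in every fasted and no fed library numbered 2 to 3, the most without fed replicate 3, where region 9 joined regions 3 and 5. The cause of these changes was not tested. The lowest hotspots called in the locus, 46 to 77 tags high, carry a counting error that limits small differences between low regions.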
